A study of Drosophila melanogaster with 3 samples.

Results

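A stable intronic sequence RNA (sisRNA) is RNA from an intron that persists after splicing, and the hosts described here are the genes whose sisRNA was listed by the authors with no hexamer of the poly(A) signal. The membership rule took the hosts whose hexamer cell was blank in the longer of the 2 deposited lists, 74 of 295 genes, and left out 8 named genes (BicC, san, cap-G, Tudor-SN, glo, twin, RpS15Aa and CG15738). The remaining 66 hosts are the members, and 38 of them also had a read count in the shorter, counted list of 140 sisRNAs. No read count entered the rule. RNA came from unfertilized eggs of y w flies (Drosophila melanogaster), a cell supplied with RNA by the mother. Libraries were made from rRNA-depleted total RNA, from its polyA-plus fraction and from its polyA-minus fraction, with 1 library each. The deposited counts form a single column without a library name. They cannot be assigned to any of the 3 fractions, and no value has a replicate.

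As background, a poly(A) signal is a short motif upstream of the place where a nascent transcript is cut and given its poly(A) tail. The canonical form is aauaaa, and auaaaa and auuaaa are variant forms. An excised intron is normally released as a lariat, debranched and degraded in the nucleus. Introns that escape this can accumulate, and an egg, which is transcriptionally quiet, keeps such RNA from oogenesis. The authors listed these 3 hexamers, alone or together, for 221 hosts. For the members the cell was empty, and which stretch of sequence was searched is not given. A blank cell therefore records only that no hexamer was listed.

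The 38 counted members were mostly low in the counted list. Their read counts ran from 9 to 212 with a median of 36 and quartiles of 20.8 and 66.3, and together they held 1855 of the 11169 listed reads (16.6%, exact 95% interval 15.9% to 17.3%), although they made up 27.1% of the sisRNAs. The 94 counted hosts with a listed hexamer had a median of 52.5 reads and ran from 8 to 869. Genes named in the rule were removed from the blank hosts only. Those with a hexamer stayed in this and all later comparisons. Only CG3267 (21 reads), piwi (37) and Gel (47) of them lay below 52.5 reads. The counted others lay above it, up to coro (275), Nipped-B (383), wal (454) and RpL35A (638). Keeping them thus widened the gap between the medians, by an amount that was not computed. With the 8 blank genes put back, hosts without a hexamer had a median of 37 reads, and 6 had at least 100. At least 100 reads were listed for 4 of the 38 members, where the share over all counted sisRNAs was 20.7%. Under 20 reads were listed for 9 members, against 17.9% over the list. Of the 38 members 14 lay above the list's median of 48, against 49.3% of all sisRNAs. When the 140 sisRNAs were ranked and cut into 4 bins of 35, the members numbered 5 in the top bin, then 9, 11 and 13. Ties at 48 reads fell across the middle border and were split by listing order, which put the member Atg5 below it. With a single value per sisRNA these differences have no replicate error and were not tested, and all intervals on counts and shares cover counting error only. No length was given for any sisRNA, so a count reflects length as well as abundance.

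**Figure D1:**
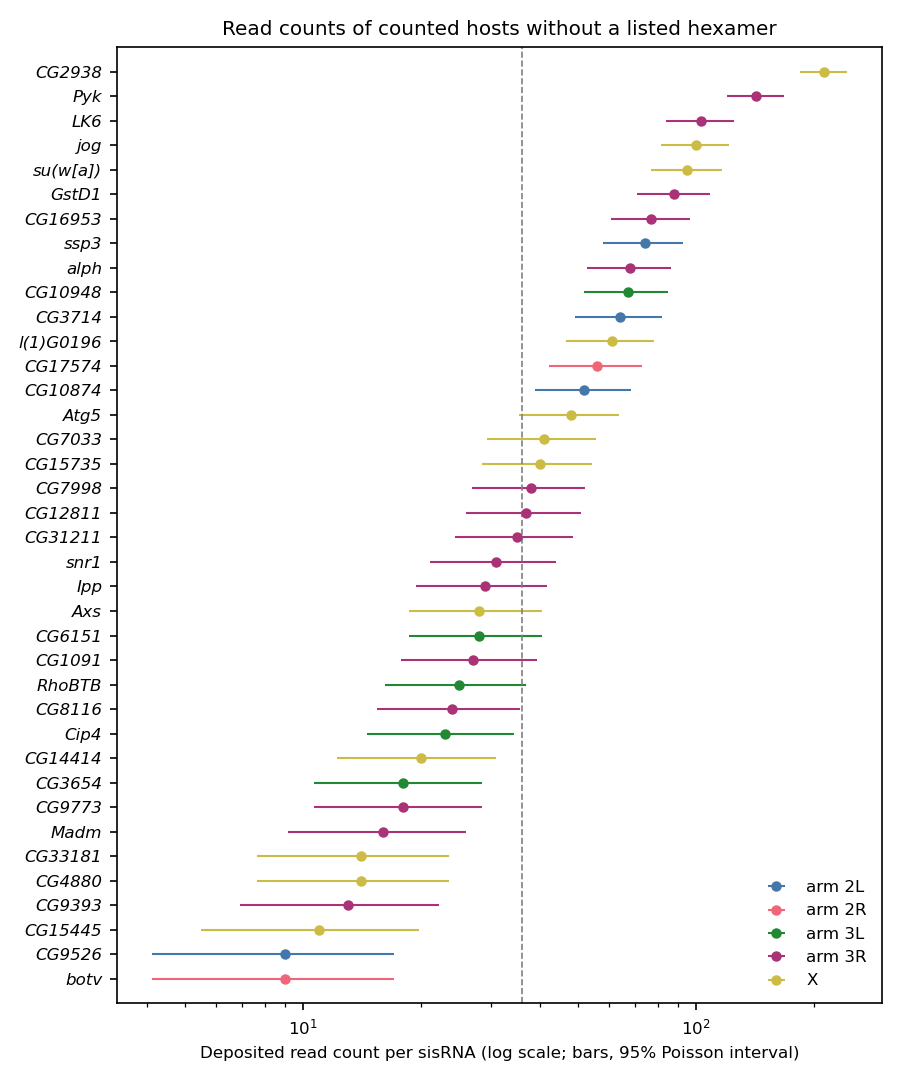
Read count of each of the 38 counted members (points, log axis) with its 95% Poisson interval (bars), coloured by chromosome arm; the dashed line is their median of 36 reads. CG2938 on X, at 212 reads, and Pyk on 3R, at 142, stand at the top, and most neighbouring hosts overlap within counting error.

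The top of the group was set by CG2938, a gene on X with no assigned name. It had 212 reads (Poisson 95% interval 184 to 243) centred at position 3829618 (all positions in dm3, as listed) and was rank 9 of the whole counted list. Its interval did not overlap that of the next member, Pyk, which encodes pyruvate kinase, the enzyme of the last step of glycolysis. Pyk had 142 reads (120 to 167) at 18193944 on 3R. LK6, a kinase that phosphorylates the cap-binding factor eIF4E, had 103 reads (84.1 to 125) at 7588982 on 3R. The gene listed as jog, now named pico and encoding an adaptor that links signalling to the actin cytoskeleton, had 100 reads (81.4 to 122) at 19733449 on X. The splicing regulator su(w[a]), which is known to repress removal of introns from its own transcript, had 95 reads (76.9 to 116) at 935684 on X. The intervals of LK6, jog and su(w[a]) overlapped one another, and that of Pyk overlapped those of LK6 and jog but not that of su(w[a]). Only CG2938 had an interval clear of every other member. These 5 sisRNAs held 652 reads, 35.1% of those of the members.

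Next in order came GstD1, a glutathione S-transferase of detoxification, with 88 reads (70.6 to 108) at 8194700 on 3R, and CG16953 with 77 reads (60.8 to 96.2) at 16410664 on 3R. On 2L, ssp3 had 74 reads (58.1 to 92.9) at 18938201. The serine/threonine phosphatase gene alph had 68 reads (52.8 to 86.2) at 25420319 on 3R, and CG10948 had 67 reads (51.9 to 85.1) at 12841251 on 3L. The intervals of these 5 hosts overlapped, and their order was not resolved.

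At the low end, CG9526 on 2L, now frj and a member of the membrane-bound O-acyltransferase family, and botv on 2R, which encodes an exostosin that builds heparan sulfate, had 9 reads each (4.12 to 17.1), centred at 6457162 and 15017487. The X-linked host CG15445, centred at 20988683, was listed with 11 reads (5.49 to 19.7). CG9393 on 3R had 13 (6.92 to 22.2) at 5388503, and CG33181 on X had 14 (7.65 to 23.5) at 8386543. CG4880 on X also had 14 reads. These hosts could not be ordered at this depth. The highest member count was 23.6 times the lowest.

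Grouped by what the proteins are known to do, metabolic enzymes were spread over the whole range. Beside Pyk, GstD1, CG9526 and botv, the nicotinate phosphoribosyltransferase gene CG3714 (now Naprt), which serves NAD synthesis, had 64 reads. The inositol pyrophosphate kinase gene l(1)G0196 had 61 reads. Mitochondrial malate dehydrogenase, CG7998 (now Mdh2), had 38 reads, and Ipp, the inositol polyphosphate 1-phosphatase gene, had 29. These groups were formed after the values were seen and are a way of ordering the hosts, not a result.

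Genes of RNA and chromatin regulation other than su(w[a]) had 40 reads or fewer. CG15735 (now Lsm12a, of the Lsm12 family) had 40 reads. CG1091, now Tailor, a terminal uridylyltransferase that adds uridines to RNA ends, had 27 reads (17.8 to 39.3). The Brahma chromatin-remodelling subunit gene snr1 had 31 reads (21.1 to 44.0), and CG3654, now Jarid2, a partner of the Polycomb repressive complex PRC2, had 18. Among genes of signalling and the cytoskeleton, LK6, jog and alph were high, whereas RhoBTB had 25 reads, the F-BAR protein gene Cip4 had 23 and the pseudokinase gene Madm had 16.

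Several further hosts act in membranes, organelles or protein folding. The autophagy gene Atg5 had 48 reads. The chaperonin subunit gene CG7033, now CCT2, had 41, and it is the only member with an annotated microRNA gene, mir-13b-2, inside an intron on the same strand. CG6151, now fwe, which encodes the membrane protein Flower, and Axs, a membrane protein gene needed for chromosome segregation in female meiosis, had 28 each. CG8116 (now TMEM216, a protein of the ciliary transition zone) had 24 and CG9773 (now Unc50, a Golgi protein) had 18. The other counted members were CG17574 (56 reads), CG10874 (52), CG12811 (37), CG31211 (35) and CG14414 (20).

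The 28 members without a read count included several regulators with well-known roles. Kinases and phosphatases among them were the histone H3 kinase gene JIL-1, Hipk (listed as CG17090), Nuak (CG11870), Mbs, which encodes the targeting subunit of myosin phosphatase, and Ptpmeg2 (listed as l(1)G0232). Ubiquitin pathway genes were ago, the F-box gene that targets cyclin E, and the deubiquitinase genes not and Usp36. Transcription and chromatin genes were ftz-f1, a nuclear receptor gene, and Acf1, a chromatin remodeller subunit. Rack1 encodes a scaffold protein of the ribosome. Enzyme genes were Duox, fdl, pug, CG33156 (now Nadk1b, an NAD kinase) and CG16833 (now TTLL4A, a tubulin tyrosine ligase-like enzyme), and mrj encodes a DnaJ co-chaperone. CG32207 is annotated today as a hairpin RNA, hpRNA:CR32207, a class of precursors of endogenous small interfering RNAs, and was the only member not annotated as protein coding. Others were CG17834, CG3294, CG5708, CG5194, CG7011, CG33097 (now CG42724), CG6678, CG7705 (now dind) and CG8180. Without a count their level is unknown, not shown to be low.

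A read count was given for 38 of the 66 members (57.6%, exact 95% interval 44.8% to 69.7%). The share over the whole longer list was 46.4%, and over the 221 hosts with a hexamer it was 42.5% (94 of 221, 35.9% to 49.3%). Hosts with a single hexamer were at 38.5% (60 of 156), those with 2 at 50.8% (30 of 59) and those with all 3 at 66.7% (4 of 6), so the members did not lie at one end of a series by number of hexamers. Arm for arm, 12 of 13 members on X were counted (92.3%, 64.0% to 99.8%) against 27 of 50 hosts with a hexamer (54.0%, 39.3% to 68.2%). On 3R it was 15 of 22 (68.2%, 45.1% to 86.1%) against 21 of 39 (53.8%, 37.2% to 69.9%). On the other arms the shares lay close together, with 4 of 10 against 37.8% on 2L, 2 of 6 against 36.0% on 2R and 5 of 15 against 31.8% on 3L. The higher share of counted members therefore stood on X and 3R, with 27 counted members between them. At the shares of the hosts with a hexamer on each arm, 29.6 members would have been counted in place of 38. How hosts were chosen for the counted list is unknown here.

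**Figure D2:**
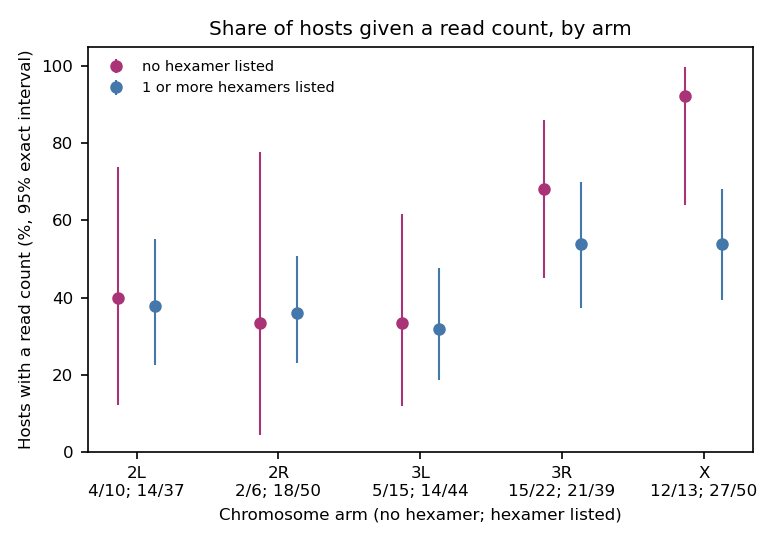
Percent of hosts with a read count on each chromosome arm, for members (purple) and hosts with 1 or more listed hexamers (blue), with exact 95% intervals as bars and the counts under each arm. On X 12 of 13 members were counted against 27 of 50 other hosts, whereas on 2L, 2R and 3L the points nearly coincide.

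By arm, members were most numerous on 3R. On that arm lay 22 of the 66 (33.3%, exact 95% interval 22.2% to 46.0%), against 17.6% of the hosts with a hexamer. X held 13 members (19.7%, 10.9% to 31.3%) against 22.6%, 3L held 15 (22.7%) against 19.9%, and 2L held 10 (15.2%) against 16.7%. On 2R lay 6 members (9.09%) against 22.6%. The median read count of members was 58 on 2L (n = 4), 32.5 on 2R (n = 2), 25 on 3L (n = 5), 35 on 3R (n = 15) and 40.5 on X (n = 12). Hosts with a hexamer had medians of 40, 136, 60.5, 48 and 44 on those arms. Members thus had the lower median on every arm except 2L, where theirs was higher. The log2 ratio of the medians, members over hosts with a hexamer, was -0.54 over all arms, -0.12 within X, -0.46 within 3R and 0.54 within 2L.

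**Figure D3:**
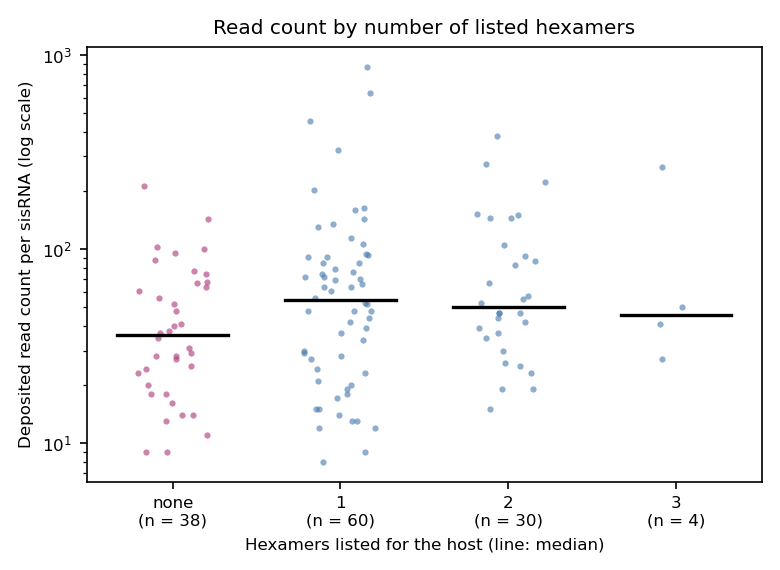
Read count per sisRNA (log axis) by the number of hexamers listed for the host, with each point a sisRNA and each line a median. The members (none) have a median of 36 reads, against 54.5, 50 and 45.5 for hosts with 1, 2 and 3 hexamers, and the point clouds overlap over most of their range.

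By number of hexamers, the median read count was 36 for the members, 54.5 for hosts with 1 hexamer (n = 60), 50 for hosts with 2 (n = 30) and 45.5 for hosts with 3 (n = 4). The upper quartile was 66.3 in members and 91.0, 102 and 104 in the other classes. Among hosts with a hexamer there was thus no rise of the median with their number. The top of the counted list held no member above 212 reads, while the hosts with a single hexamer reached 869 and those with 2 reached 383. The 383 reads were those of Nipped-B, and the next in that class was coro with 275. Both are among the genes that the rule leaves out by name. After them came gp210 with 222 reads.

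Host genes were then compared by their introns, a property the rule did not use directly. The hexamers were sought in sequence of unknown length, so whether a blank cell is independent of intron length was not tested. Symbols were matched to a current annotation of another genome build (BDGP6), so listed centres were not placed in introns and only gene structure was used. All 66 members matched, 24 of them under a name now spelt differently, and 213 of the 221 hosts with a hexamer matched. The median longest intron was 1558 bases in members (quartiles 492 and 6881) and 2100 bases in hosts with a hexamer (795 and 6917). By class it was 1581 bases with 1 hexamer, close to the members, 3614 with 2 and 5609 with 3. Across all 11819 protein-coding genes with an intron it was 254 bases. Members had a median of 6 distinct introns and a gene length of 5515 bases, against 8 introns and 6938 bases. The log2 ratio of the median longest introns, members over hosts with a hexamer, was -0.43 over all arms. Within arms it was -1.18 on X, -0.81 on 3R, -0.46 on 3L and -0.45 on 2L, and 2.17 on 2R, where 6 members had a median of 10735 bases. The longest intron was thus shorter in members on 4 of 5 arms. The pooled ratio was -0.79 without 2R and 0.07 without 3R, the arm with the most members.

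**Figure D4:**
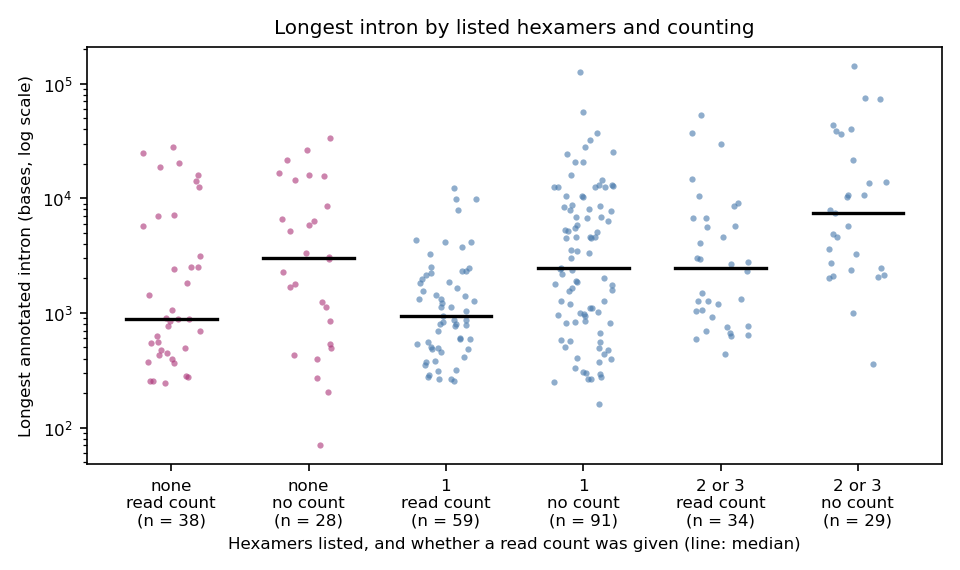
Longest annotated intron of each host (log axis) by number of listed hexamers and by whether a read count was given, with each point a gene and each line a median. Within each class, over all arms together, the counted hosts have the shorter introns, with medians of 890.5 bases in counted and 3014.5 bases in uncounted members.

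Over all arms together, counted hosts had shorter introns than uncounted ones in each class. In members the median longest intron was 890.5 bases with a read count (n = 38) and 3014.5 bases without (n = 28). In hosts with a hexamer the values were 1270 and 3566 bases. Within arms the order was opposite in members on 3L, with 2397 bases counted and 1985.5 uncounted. It was also opposite in hosts with a hexamer on 2R, with 3349 and 2012 bases. On the other main arms of each group it held, and in members on 2L the gap was small (1782.5 and 2083 bases). Only 1 member on X was uncounted, however, and only 2 on 2R were counted (9582 and 10735 bases). Uncounted members with very long introns included ftz-f1 (33674 bases), Nuak (26221 bases) and Hipk (21459 bases). Exceptions ran both ways, since the counted host su(w[a]) has an intron of 28119 bases and the uncounted gene CG5194 none over 70. These lengths are taken over all annotated transcripts. In the su(w[a]) transcript with the most introns the longest is 7580 bases. Of members whose longest intron is under 500 bases 12 of 18 were counted (66.7%), as were 12 of 18 with 500 to under 2000 bases and 14 of 30 with 2000 or more (46.7%). For hosts with a hexamer these shares were 50.0%, 62.0% and 30.0%.

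Read counts of members went up with intron length in a loose way. Across the 38 counted members Spearman's rank correlation between read count and longest intron was 0.46, and 0.54 without CG2938. It was 0.26 across the 93 matched counted hosts with a hexamer. These are descriptions across genes that share the same pooled counts. Median counts of members were 28 reads with a longest intron under 500 bases, 26.5 with 500 to under 2000 bases and 65.5 with 2000 or more. The hosts with a hexamer had 24, 54 and 70 reads in those ranges. The lower median of members was thus seen chiefly in the middle range (12 members against 44 hosts), while in the range of shortest introns theirs was slightly higher.

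**Figure D5:**
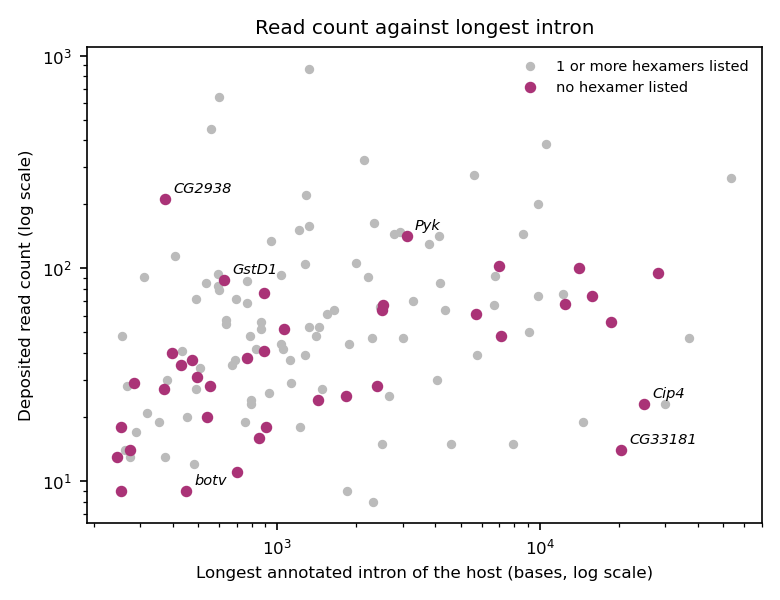
Read count against the longest annotated intron of the host (both axes log) for counted members (purple) and counted hosts with a hexamer (grey), 1 point per gene. CG2938 has 212 reads with no intron over 373 bases, whereas CG33181 has 14 reads with an intron of 20322 bases.

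The longest intron also bounds how long a sisRNA from a single annotated intron can be, so reads divided by that length give the lowest density the sisRNA could have. On this scale CG2938 stood apart among members, with 568 reads per kilobase of its longest intron of 373 bases (counting interval 494 to 650). It ranked 5 among all counted hosts by this value, against 9 by read count. GstD1 followed with 140 reads per kilobase (113 to 173), then Ipp with 102 and CG15735 with 101. Of the 38 members 21 have no intron of 1000 bases or more. The median was 31.0 reads per kilobase in members and 40.9 in hosts with a hexamer. These medians include hosts with 2 listed centres, such as CG31211 (81.4). Reads of such hosts may come from several introns, so the bound need not hold for them. For hosts with long introns, such as su(w[a]) at 3.38, the bound says little about the true density. For 3 members the annotation has a single intron, so the listed RNA can come only from it if that annotation holds. These are Ipp (29 reads, 284 bases), snr1 (31 reads, 494 bases) and Madm (16 reads, 852 bases).

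Reads of another transcript may enter a count where genes overlap, and no source used here says if strand was used in counting. Overlap on the same strand was examined only for genes inside member introns. Atg5 (48 reads) itself lies inside an intron of CG1677 on the same strand. CG1677 is a listed host with aauaaa and auaaaa and no read count. Whether its RNA entered the count of Atg5 was not tested. A gene on the opposite strand overlaps 26 of the 66 members (39.4%), where the share over all matched hosts was 39.4%. The 14 counted members with such an overlap had a median of 27.5 reads and the 24 without one had 39. The hosts with a hexamer showed no such order, with 54.5 reads for 22 and 52 for 71. Of the 5 highest members only su(w[a]) has such an overlap, with CG11638, CG32814 and Cdc45. CG11638 is itself a counted host with a listed hexamer (74 reads). The authors marked 9 members with a remark in either list, cis-NAT (a natural antisense transcript of the same place) or AS. What AS stands for is not spelt out. CG10874, CG17574, CG1091, Atg5 and CG33181 have the cis-NAT remark in the counted list. Duox has it in the longer list, and CG9393, JIL-1 and ago have AS only. The 5 with the remark in the counted list had a median of 48 reads and the other counted members 35, an order opposite to that by annotated overlap. The current annotation has an opposite-strand gene for 4 of these 9, an antisense RNA for CG10874 and CG17574, Dpck and an antisense RNA for CG1091, and the ovarian gene otu for CG33181.

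A total of 3 neighbouring pairs was found when member centres were compared with all other listed centres within 10 kilobases. The centre of CG1091 (27 reads) lay 1248 bases from that of alphaTub84B (72 reads). That of snr1 (31 reads) lay 4748 bases from that of the ribosomal protein gene RpL35A (638 reads), and that of CG16953 (77 reads) lay 9302 bases from that of bon (76 reads). All of these lie on 3R and in each the neighbour has a listed hexamer. CG31211 was the only member with 2 listed centres, at 7777743 and 7776870 on 3R, and its 35 reads are not divided between them.

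Other genes sat inside member introns. A gene on the same strand lay within an intron of 8 members, among them Diedel2 in alph, a pair of transfer RNA genes in mrj and 3 genes in su(w[a]). No member had an annotated small nucleolar or small nuclear RNA gene inside an intron, and 7 of the 213 matched hosts with a hexamer had one. Over the whole longer list it was 8 of 287 matched hosts, and the one not yet counted was Tudor-SN, a blank host that the rule left out. At so low a share, finding none among 66 members says little. By position along the arm, 7 of the 66 members (10.6%) fell in the 10% of genes closest to the centromere, where the share over all matched hosts was 18.5% and over hosts with a hexamer 21.7%. These 7 were CG1091, CG33097, Madm and snr1 on 3R and CG15445, jog and l(1)G0196 on X. On X the order was opposite, with 3 of 13 members (23.1%) against 5 of 50 hosts with a hexamer (10%). On every other main arm the members had the lower share.

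Lists of genes that act on poly(A) tails and introns were looked up among the hosts. Of 17 genes of cleavage and polyadenylation 4 were sisRNA hosts, and none was a member, where 66 of all 295 hosts were members. With only 4 hosts this says little about the members. They were CG7185 (now Cpsf6, a subunit of the cleavage factor, 152 reads), the poly(A) polymerase gene hrg, the nuclear poly(A)-binding protein gene Pabp2 and the termination factor gene Pcf11, the last 3 without a count. None of 15 genes of intron turnover and the nuclear exosome was a host. Of 9 germ line genes piwi alone was a host, with a listed hexamer, and none of 13 follicle cell genes was. The files list intronic RNAs only, so these look-ups do not measure whether the egg RNA holds the mRNAs of those genes.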

How the data were processed

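The read counts are whole numbers per sisRNA that the authors deposited without normalization, in a column without a library name. The hexamers are text. Positions are in build dm3, named in the submitters' processing notes. The aligner, the counter, the calling of sisRNAs and the treatment of multiply mapped reads are not given. Library depth is unknown, and the 11169 listed reads are not a library total.

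The 2 lists were joined by symbol without bracketed remarks. Symbols were matched on the listed arm to the names and synonyms of Ensembl release 115 (BDGP 6.54) and RefSeq, for names, introns, overlaps and gene order only. Transposable elements were left out of overlaps. Exact Poisson intervals were computed for counts and Clopper-Pearson intervals for shares, at 95%. No test was run, because no value had a replicate. The ratio and interval code was tested on simulated data.

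All members but 1, which is not reported here, were named, with intervals and positions for the 10 highest and 5 lowest counts, ties broken alphabetically. Members, lists and groupings were chosen with earlier results of these data known. Computation used Python 3.11.15, numpy 2.4.6, pandas 2.3.3 and scipy 1.17.1.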

Additional observations from a re-analysis of the deposited data

How the results depend on the processing

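Shares are printed here where they left their own counting interval, and other values where they moved by over 1.5 times or changed sign. These are yardsticks of size only, since the spread of a median over genes was not estimated. No paired analysis was possible because the single count column belongs to no named library. With a minimum of 10 or 20 reads, without the antisense-marked or 2-centre sisRNAs, and with hexamers as in the counted list, the median count and its ratio to hosts with a hexamer kept their direction.

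The share of listed reads in members was 18.0% without CG11008, 15.0% without CG2938, 15.7% without antisense-marked sisRNAs and 20.2% with every blank host included. The counted share was 40.0% within 2L, 33.3% within 2R, 33.3% within 3L and 92.3% within X. The median count was 58 within 2L and 65.5 with introns of 2000 bases or more. The log2 ratio of median counts was -2.07 within 2R, -1.28 within 3L, 0.54 within 2L and 0.22 with introns under 500 bases, the last 2 with the opposite sign. The cause was not tested.

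The median longest intron was 2448.5 bases without 3R, 10735 within 2R, 809.5 within 3R, 889 within X, 998 in the transcript with the most introns and 890.5 in counted members, and total intron length was 2451.5. The log2 ratio of longest introns was -1.18 within X, and it had the opposite sign without 3R (0.07) and within 2R (2.17). The ranges of intron length were chosen after the data were seen. Counts under 20 have wide intervals, which limits the order of the lowest members.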
